A study of Homo sapiens with 4 samples.

Results

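Amino acids enter mammalian cells through solute carriers of the plasma membrane, and 10 genes for such carriers were followed here in MDA-MB-231 cells, an established human triple-negative breast cancer line. They are SLC3A2, SLC7A5, SLC7A11, SLC7A1, SLC7A3, SLC1A4, SLC1A5, SLC38A1, SLC38A2 and SLC6A9, chosen by gene symbol out of the 58735 genes of the count table, because they carry amino acids at the cell surface and many respond to the transcription factor ATF4. Read counts of 4 libraries were compared, 1 library for each of 4 sorted populations, so that no difference has a replicate check. All populations came from a line transduced with a doxycycline-inducible histone H2B-eGFP reporter (TetOn-H2BeGFP), which received doxycycline at 5 μg/ml for 3 days and the dyes Claret and Violet, followed by a chase of 12 days. The Claret, eGFP and Violet libraries are from the 1% of cells that retained most of that label, taken as slow-cycling cells, since a label is diluted at each division. The Bulk library is from cells that went through the sorter without a fluorescence gate, and it therefore also holds cells that had divided often. Groups are those of the sample titles, which match the column names of the deposited count and FPKM tables. In all 4 samples the treatment field names a different population, and under that field the library titled Bulk would be the Claret sort and the library titled Violet the ungated one.

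Each carrier family moves its amino acids by a different chemistry, and cells combine them. SLC3A2 (4F2hc, CD98) is a single-span glycoprotein, the heavy chain that is linked by a disulfide bond to a light chain of the SLC7 family and brings it to the membrane. With SLC7A5 (LAT1) it exchanges large neutral amino acids such as leucine for intracellular glutamine, and with SLC7A11 (xCT) it imports cystine in exchange for glutamate. SLC7A1 and SLC7A3 (CAT1 and CAT3) carry arginine and lysine and need no heavy chain. SLC1A5 (ASCT2) and SLC1A4 (ASCT1) exchange small neutral amino acids with sodium, SLC38A1 and SLC38A2 (SNAT1 and SNAT2) accumulate glutamine and alanine with sodium, and SLC6A9 (GlyT1) takes up glycine. When amino acids run short or proteins misfold in the endoplasmic reticulum, phosphorylation of eIF2α favours translation of ATF4, which binds composite elements in the control regions of several of these genes. AP-1, which the series title names, and NRF2 bind other short elements, and MYC binds E-boxes.

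Promoter windows were read from RefSeq (GRCh38.p14, 250 bases before to 50 after a transcript start), where 8 of the 10 genes matched, with 14 windows in all. SLC7A11 and SLC7A3 were not matched. Both strands were searched for TGATGNAA (reverse complement TTNCATCA, the core of the ATF4 composite element), TGANTCA (AP-1), TGACNNNGC (reverse complement GCNNNGTCA, the core of the antioxidant response element of NRF2) and CACGTG (E-box). A TGANTCA followed by GC is counted under both the AP-1 and the antioxidant pattern. The windows of 4 genes are printed because SLC3A2, SLC7A5 and SLC1A4 were at least 2-fold higher than Bulk in the results that follow, and SLC38A1, which holds 2 of the same patterns, was not. Each is given 5′ to 3′ on the strand of the gene, up to the first 30 bases after the start, with matches to any of the 4 patterns in capitals. Where a gene has several windows the one with most matches was taken, so that some starts are internal to the gene. Against the outermost start in the table's coordinates, the start shown lies 25.6 kb inside SLC3A2, 3.50 kb inside SLC38A1 and 0.92 kb inside SLC1A4, and that of SLC7A5 lies at the gene's edge.
SLC3A2: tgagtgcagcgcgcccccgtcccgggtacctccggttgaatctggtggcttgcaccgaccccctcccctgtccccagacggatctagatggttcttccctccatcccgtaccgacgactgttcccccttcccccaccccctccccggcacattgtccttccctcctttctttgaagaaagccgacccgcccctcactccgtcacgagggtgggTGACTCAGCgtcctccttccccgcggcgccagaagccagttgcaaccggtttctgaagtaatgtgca
SLC7A5: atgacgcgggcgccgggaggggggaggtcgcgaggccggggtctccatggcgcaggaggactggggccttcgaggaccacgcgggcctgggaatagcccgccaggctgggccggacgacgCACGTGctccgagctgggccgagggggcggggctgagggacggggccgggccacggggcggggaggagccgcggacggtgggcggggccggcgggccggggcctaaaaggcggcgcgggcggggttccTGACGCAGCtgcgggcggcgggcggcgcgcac
SLC1A4: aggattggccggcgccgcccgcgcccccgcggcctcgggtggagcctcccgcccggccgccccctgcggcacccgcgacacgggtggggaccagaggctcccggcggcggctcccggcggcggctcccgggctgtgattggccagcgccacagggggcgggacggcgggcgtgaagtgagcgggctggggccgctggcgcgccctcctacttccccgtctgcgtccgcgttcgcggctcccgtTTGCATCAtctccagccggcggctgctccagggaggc
SLC38A1: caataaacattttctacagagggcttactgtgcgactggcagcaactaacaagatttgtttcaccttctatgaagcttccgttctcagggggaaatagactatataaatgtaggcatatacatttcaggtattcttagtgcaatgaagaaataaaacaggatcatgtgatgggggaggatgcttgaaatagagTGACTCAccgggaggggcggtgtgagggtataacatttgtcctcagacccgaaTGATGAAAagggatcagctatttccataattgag
These stretches lie at chr11:62881449-62881728 on the plus strand (SLC3A2), chr16:87869478-87869757 on the minus strand (SLC7A5), chr2:64989149-64989428 on the plus strand (SLC1A4) and chr12:46266487-46266766 on the minus strand (SLC38A1). In SLC1A4 the run TTGCATCA begins 7 bases before the start. SLC38A1 holds TGATGAAA beginning 4 bases before its start and TGACTCA beginning 57 bases before it. In SLC3A2 the run TGACTCAGC, which matches both AP-1 and the antioxidant pattern, begins 37 bases before the start, and TTACATCA begins at base 38 after it, beyond the printed stretch. SLC7A5 holds an E-box beginning 130 bases before the start and TGACGCAGC beginning 2 bases before it, and no match to TGATGNAA. Elsewhere, SLC7A1 has TGATGAAA at base 8 after the start and SLC1A5 has TGATGCAA 97 bases before an internal start. Over the 14 windows of the 8 matched genes, TGATGNAA was found in 5 windows, against 3.62% of the 35116 windows of all genes. TGANTCA was found in 2 of the 14 (7.71% of all windows), TGACNNNGC in 4 (13.3%) and CACGTG in 2 (7.26%). The genes have up to 3 windows each, and a match describes the letters only.

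Summed reads were 15508179 to 16976909 per library. Reads were scaled by TMM, expressed as CPM (counts relative to the scaled library total), and compared as log2 ratios with a prior count of 2. A gene was tested when its mean over the 4 libraries was at least 1 CPM, which 14585 genes reached, and it was called where the ratio reached 2-fold in either direction (1 on the log2 scale). Bracketed ranges are 95% intervals, exact by the Clopper-Pearson method, for the read ratio, and cover counting error only. The 3 comparisons with Bulk share that library. FPKM are reads scaled by the authors to exonic length and to a total set for each library. The line's own markers VIM, CD44, AXL, MSN, CAV1 and ANXA1 were at 33.0 to 252 FPKM in every library, and ERBB2, low in triple-negative cells, at 8.54 to 9.06. Of 8 markers of blood, endothelial, liver and fibroblast cells, 2 to 4 had 0 reads per library, HBB and CD3E in all of them, and their summed FPKM was 2.42 in Bulk and 2.97 to 3.00 in the slow-cycling libraries. VWF, an endothelial gene, was called higher in all 3, with at most 24 reads, and passed the filter only through them. Proliferation genes moved with the groups: MKI67 was at 34.1 FPKM in Bulk and 3.37 to 4.58 in the slow-cycling libraries, and all 8 proliferation genes listed were called lower in each. Their part in the transporter differences was not tested.

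Of the 10 transporter genes, 9 were tested, each with at least 7.62 CPM in every library, and all 9 were above Bulk in all 3 slow-cycling libraries, as were 42.4% of all genes tested and 38.6% of those with a mean of at least 10 CPM. SLC3A2, SLC7A5, SLC7A11, SLC1A5, SLC1A4 and SLC6A9 were at least 2-fold higher in each, whereas SLC7A1, SLC38A1 and SLC38A2 were not, and none was called lower. The 6 called stand against a background of 11.3%, 12.0% and 11.4% of all genes tested for Claret, eGFP and Violet, and 8.60% in all 3. The background of genes called lower was 6.68%, 7.63% and 7.02%, and 4.92% in all 3. Among the 10112 genes with a mean of at least 10 CPM, 6.08%, 6.77% and 6.01% were called higher in Claret, eGFP and Violet, and 4.94% in all 3. The median log2 ratio over the 9 genes was 1.37, 1.22 and 1.28 in Claret, eGFP and Violet, against -0.01, -0.01 and 0.00 over all genes tested. RNA was pooled over each population, so that more cells with a transcript and more transcript per cell cannot be told apart. Together the 9 genes took 0.182% of the Bulk reads, and 0.371%, 0.360% and 0.371% of those of Claret, eGFP and Violet. The call of these 6 genes rests on the titles: with groups from the treatment field, 0 of them was higher and 6 were lower than Bulk in Claret, and 0 was called in eGFP and in Violet. The tables' column names follow the titles, and all 8 proliferation genes were highest in the library titled Bulk.

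**Figure D1:**
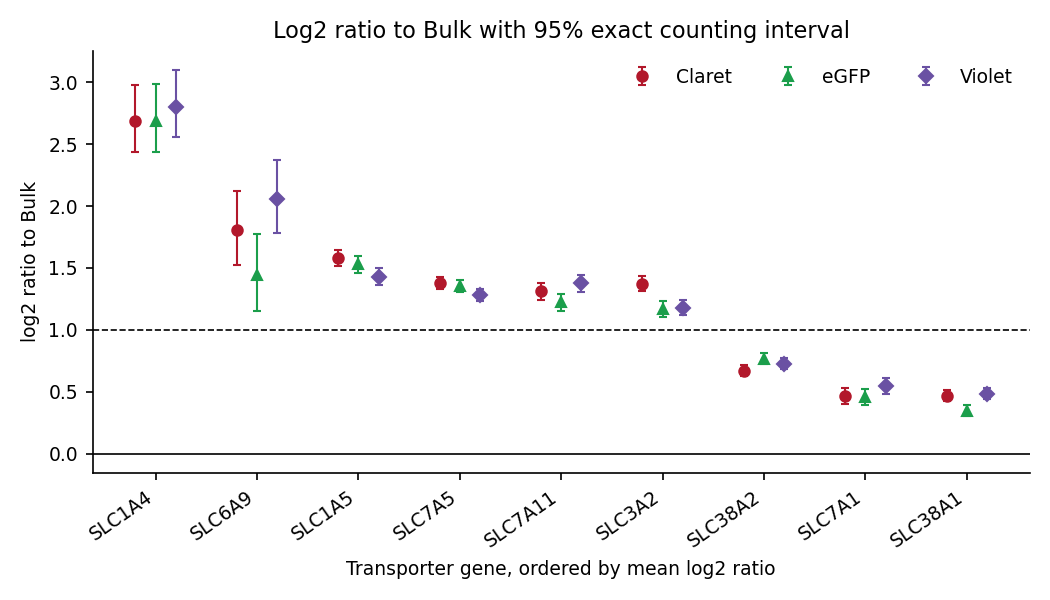
Log2 ratio to Bulk (vertical axis) of the 9 tested transporters in the Claret, eGFP and Violet libraries, with 95% exact counting intervals as bars; the dashed line marks a 2-fold difference. SLC1A4 sits highest at 2.68 to 2.80, SLC1A5, SLC7A5, SLC7A11 and SLC3A2 between 1.17 and 1.58, and SLC7A1, SLC38A1 and SLC38A2 under the dashed line.

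The heavy chain and its main light chains were all called higher. SLC3A2 (ENSG00000168003, chromosome 11, 62856102 to 62888875, plus strand) was read 2977 times in the Bulk library, against 8309 (Claret), 6733 (eGFP) and 6758 (Violet), or 189, 490, 424 and 428 CPM. Bulk was lowest, Claret highest, and eGFP and Violet lay close together. The log2 ratio was 1.37 (1.31 to 1.44), 1.17 (1.10 to 1.23) and 1.18 (1.12 to 1.24) in Claret, eGFP and Violet.

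SLC7A5 (ENSG00000103257, chromosome 16, 87830023 to 87869488, minus strand) was read 4609 times in the Bulk library, against 12910 (Claret), 11880 (eGFP) and 11252 (Violet). Bulk was lowest, at 293 CPM, and the slow-cycling libraries were at 712 to 761 CPM. Its log2 ratios were 1.38 (1.33 to 1.43), 1.36 (1.31 to 1.40) and 1.28 (1.23 to 1.33) in Claret, eGFP and Violet. The pseudogenes SLC7A5P1 and SLC7A5P2 had 0 reads in all 4 libraries.

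SLC7A11, the cystine carrier (ENSG00000151012, chromosome 4, 138164097 to 138242349, minus strand), was read 2377 times in the Bulk library, against 6357 (Claret), 5592 (eGFP) and 6189 (Violet). These are 151, 375, 352 and 392 CPM, with Violet highest. The log2 ratios were 1.31 (1.24 to 1.38), 1.22 (1.15 to 1.29) and 1.38 (1.31 to 1.45). SLC7A11-AS1, an antisense gene that overlaps 14081 bases of it, was read 19 times in Bulk, against 41 to 64. The use of strand in counting is not given in the sources used here, and the reads of such partners cannot be told apart without it.

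Ratios between 2 genes of the same library do not depend on how libraries are scaled, and they were taken for the heavy chain and its light chains. Relative to SLC3A2, SLC7A5 changed by 0.01 (-0.07 to 0.08) on the log2 scale in Claret, 0.19 (0.11 to 0.27) in eGFP and 0.10 (0.02 to 0.18) in Violet. SLC7A11 relative to SLC3A2 changed by -0.06 (-0.15 to 0.03), 0.06 (-0.04 to 0.15) and 0.20 (0.10 to 0.29). After a correction for GC content, in which these genes differ, SLC7A11 relative to SLC3A2 stood at 0.06, 0.23 and 0.30, and SLC7A5 relative to SLC3A2 at -0.11, 0.12 and 0.04. Per length, the summed FPKM of the 6 light chains known to pair with SLC3A2 was 2.31 times that of SLC3A2 in Bulk, 2.16 times in Claret, 2.43 times in eGFP and 2.37 times in Violet. SLC7A5 made up 73.2% of this light-chain sum in Bulk and 76.7% to 79.2% in the slow-cycling libraries, and SLC7A11 made up 18.3% to 20.8% in all 4.

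The other light chains were scarce or lower. SLC7A6 (y+LAT2), which exchanges cationic for neutral amino acids, was read 819 times in Bulk and 594, 541 and 558 times in the slow-cycling libraries, a log2 ratio of -0.57, -0.61 and -0.56. SLC7A7 (y+LAT1) was read 7 times in Bulk, against 51, 31 and 27, with log2 ratios of 2.46 (1.61 to 4.14), 1.87 (0.93 to 3.56) and 1.69 (0.71 to 3.39). It passed the expression filter only through the slow-cycling libraries, so that it had to differ. SLC7A8 had at most 6 reads and SLC7A10 at most 1, and neither was tested.

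Of the cationic carriers, SLC7A1 differed less and SLC7A3 was not detected. SLC7A1 (ENSG00000139514, chromosome 13, 29509410 to 29595688, minus strand) was read 3318 times in the Bulk library, against 4931 (Claret), 4594 (eGFP) and 4866 (Violet). Bulk was the lowest of the 4 libraries, and its level was exceeded 1.38-fold (1.32 to 1.44), 1.37-fold (1.31 to 1.44) and 1.46-fold (1.40 to 1.53), under the 2-fold rule. Relative to SLC7A5, SLC7A1 changed by -0.91 (-0.99 to -0.83), -0.90 (-0.98 to -0.81) and -0.74 (-0.82 to -0.65) on the log2 scale. SLC7A3 (ENSG00000165349, chromosome X, 70925582 to 70931125, minus strand) was read 0 times in every library, and a count of 0 allows up to 3 reads, or 0.177 to 0.190 CPM. A difference of SLC7A3 between populations was not detectable at this depth.

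The 2 sodium-dependent exchangers of the SLC1 family were both called, and the scarcer one differed more. SLC1A5 (ENSG00000105281, chromosome 19, 46774883 to 46788594, minus strand) was read 2438 times in the Bulk library, against 7835 (Claret), 7092 (eGFP) and 6578 (Violet). At 155 CPM in Bulk against 462, 447 and 416, it was 2.98-fold (2.85 to 3.13), 2.89-fold (2.76 to 3.02) and 2.69-fold (2.57 to 2.82) higher.

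SLC1A4 (ENSG00000115902, chromosome 2, 64988477 to 65023865, plus strand) was read 129 times in the Bulk library, against 904 (Claret), 848 (eGFP) and 914 (Violet). The slow-cycling libraries were nearly level, at 53.3, 53.4 and 57.9 CPM, and all stood far above the 8.19 CPM of Bulk. The difference was 6.43-fold (5.41 to 7.89), 6.44-fold (5.42 to 7.92) and 6.98-fold (5.87 to 8.57), the largest of the 9 genes in each library. Among all 14585 genes tested its log2 ratio ranked 130, 172 and 117 in Claret, eGFP and Violet. Relative to SLC1A5, SLC1A4 changed by 1.12 (0.85 to 1.41), 1.18 (0.90 to 1.46) and 1.39 (1.12 to 1.68) on the log2 scale.

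The glutamine and alanine carriers of the SLC38 family lie next to each other on chromosome 12, 88.2 kb apart with no gene of the table wholly between them, and both were modestly above Bulk. SLC38A2 (ENSG00000134294, 46358189 to 46372867, minus strand) was read 6852 times in the Bulk library, against 11747 (Claret), 11758 (eGFP) and 11380 (Violet). SLC38A1 (ENSG00000111371, 46183063 to 46270017, minus strand) had 6425, 9582, 8245 and 9015 reads in the same order. For both genes Bulk was the lowest library. SLC38A2 was 1.59-fold (1.55 to 1.64), 1.70-fold (1.65 to 1.76) and 1.66-fold (1.61 to 1.71) its Bulk level, and SLC38A1 was 1.39-fold (1.34 to 1.43), 1.27-fold (1.23 to 1.32) and 1.40-fold (1.36 to 1.45). SLC38A2 moved further than SLC38A1 by 0.20 (0.14 to 0.26), 0.42 (0.36 to 0.48) and 0.24 (0.18 to 0.31) on the log2 scale.

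SLC6A9, the glycine carrier (ENSG00000196517, chromosome 1, 43991500 to 44031467, minus strand), was the gene of the set on which the slow-cycling libraries differed most. It was read 120 times in the Bulk library, against 456 (Claret), 332 (eGFP) and 507 (Violet), or 7.62, 26.9, 20.9 and 32.1 CPM. Bulk was lowest and eGFP was the lowest of the slow-cycling libraries. The log2 ratios were 1.80 (1.53 to 2.12), 1.44 (1.15 to 1.77) and 2.06 (1.79 to 2.37). Its gene body overlaps CCDC24 on the opposite strand over 5029 bases, and CCDC24 also had more reads in the slow-cycling libraries, 238 to 263 against 126 in Bulk. AL139220.2, another opposite-strand partner, was read 23 times in Bulk, against 34 to 56. The count of SLC6A9 is therefore uncertain.

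Levels can be compared between genes only per length, as FPKM, which the authors computed from the exonic length of each gene, with all its annotated transcripts. In Bulk the order was SLC38A2 at 66.8 FPKM, SLC7A5 at 62.5, SLC1A5 at 47.1, SLC38A1 at 41.3, SLC3A2 at 37.0, SLC7A1 at 27.8, SLC7A11 at 15.9, SLC6A9 at 1.497 and SLC1A4 at 1.20. In the slow-cycling libraries SLC7A5 came first, at 160 FPKM in Claret, 157 in eGFP and 148 in Violet. SLC1A5 followed at 139, 133 and 123, ahead of SLC38A2 at 105, 111 and 107 and SLC3A2 at 94.5, 81.4 and 81.3. SLC38A1 came next with 56.4, 51.5 and 56.1 FPKM. SLC7A11 and SLC7A1 did not differ beyond counting error in any slow-cycling library: their levels were 38.8 and 37.8 in Claret, 36.3 and 37.4 in eGFP and 39.97 and 39.4 in Violet, while in Bulk SLC7A1 was 1.75-fold (1.66 to 1.85) above SLC7A11. SLC1A4 and SLC6A9 were last everywhere. In Bulk they did not differ beyond counting error (1.25-fold, 0.97 to 1.62), and in the slow-cycling libraries SLC1A4 was the higher, by 1.34-fold to 1.90-fold.

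**Figure D2:**
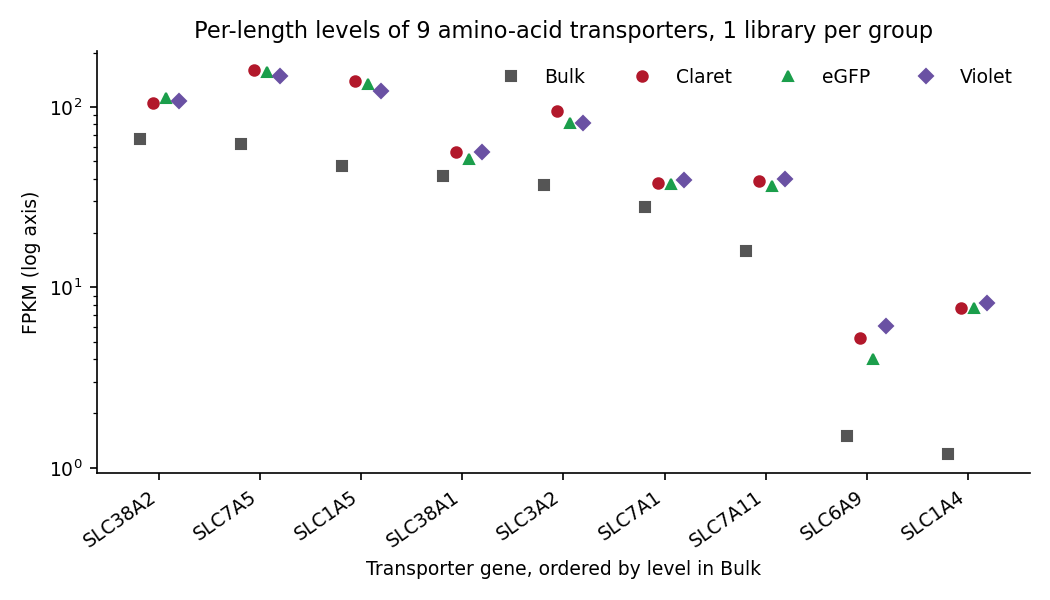
FPKM on a log axis (vertical) of the 9 transporters with reads, ordered by their level in Bulk, with 1 point per library. SLC7A5 moves from 62.5 FPKM in Bulk to 148 to 160, SLC1A4 from 1.20 to 7.65 to 8.20, and Bulk is the lowest point for each of the 9 genes.

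Rank by FPKM among protein-coding genes gives the same levels a context. SLC7A5 stood at rank 583 in Bulk and at ranks 164 to 167 in the slow-cycling libraries. SLC7A11 went from rank 3136 to ranks 850 to 1028, and SLC1A4 from rank 10398 to ranks 4915 to 5287. SLC38A1, which was not called, went from rank 1025 to ranks 565 to 651.

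The slow-cycling libraries were then set against each other, to see whether the 3 ways of retaining label differed in these carriers. No transporter differed by 2-fold between any 2 of them, against 0.501% of all genes higher and 0.644% lower for Claret over eGFP, 0.343% and 0.713% for Claret over Violet, and 0.377% and 0.912% for eGFP over Violet. The interval excluded 0 for 6 of the 9 genes between Claret and eGFP, 7 between Claret and Violet and 7 between eGFP and Violet. For all genes tested the share was 24.5%, 28.3% and 28.5%, but intervals narrow with the number of reads, and most of these genes are highly read. Library-to-library variation was not measured, so the intervals cannot say whether populations differ.

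SLC6A9 gave the widest gap, with an eGFP minus Violet difference of -0.61 on the log2 scale (-0.82 to -0.42), Claret above eGFP by 0.36 (0.16 to 0.57) and a Claret minus Violet difference of -0.25 (-0.44 to -0.07). SLC3A2 was higher in Claret than in eGFP by 0.21 (0.16 to 0.25) and than in Violet by 0.20 (0.15 to 0.24), with -0.01 (-0.06 to 0.04) between eGFP and Violet. SLC7A11 was highest in Violet, with differences of -0.064 for Claret minus Violet and -0.15 for eGFP minus Violet. SLC7A5 and SLC1A5 were lowest in Violet, and Claret exceeded it by 0.10 and 0.15. SLC1A4, which differed most from Bulk, had intervals that included 0 in all 3 pairs.

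**Figure D3:**
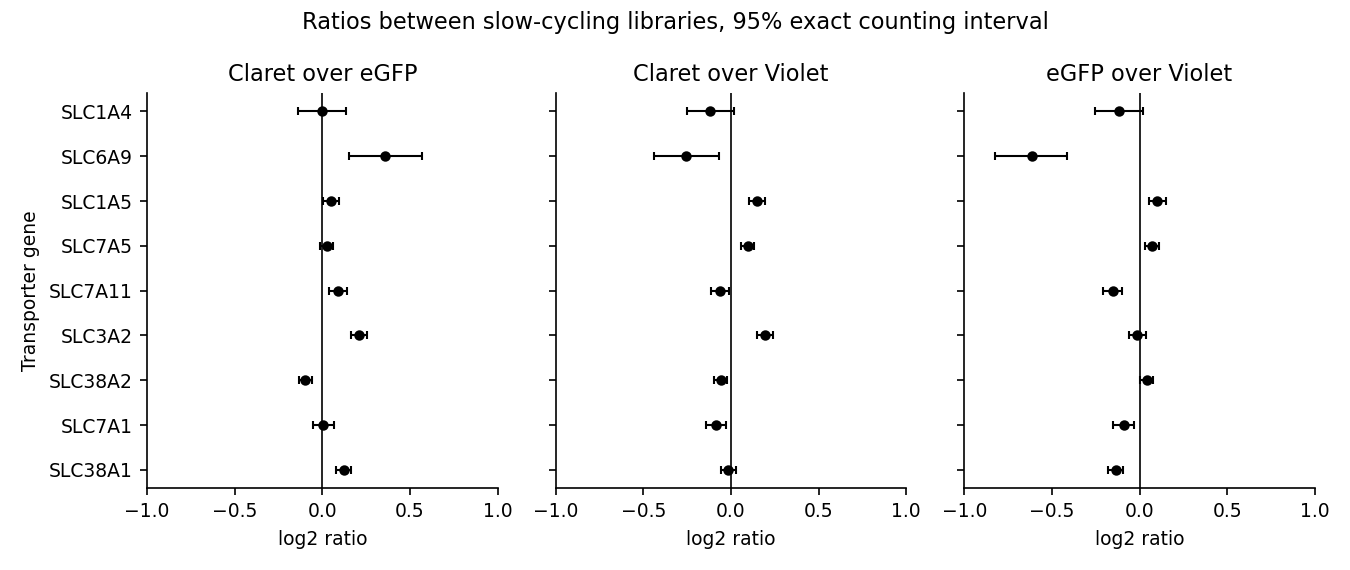
Log2 ratios (horizontal axes) between each pair of slow-cycling libraries for the 9 transporters, with 95% exact counting intervals; the vertical line marks no difference. SLC6A9 at -0.61 for eGFP over Violet lies farthest from 0, and SLC3A2 lies near 0.2 in both panels with Claret.

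Other amino-acid carriers of the cell surface did not share this pattern as a group. Of 31 further carriers listed, 11 were tested. SLC43A1 and SLC7A7 were called higher in all 3 libraries, against 8.60% of all genes tested, and none was called lower. At a mean of at least 10 CPM, 7 of these carriers were tested and SLC43A1 alone was called higher in all 3, against 4.94% of all genes. The median log2 ratio over the 11 was -0.24, -0.30 and -0.23 in Claret, eGFP and Violet. SLC43A1 (LAT3), which carries leucine and other large neutral amino acids without a heavy chain, was read 280 times in Bulk and 734, 664 and 658 times in the slow-cycling libraries, a log2 ratio of 1.28 (1.08 to 1.49), 1.23 (1.03 to 1.44) and 1.22 (1.03 to 1.44). The taurine carrier SLC6A6 was at 0.22, 0.55 and 0.50, the glutamate carrier SLC1A3 at -0.82, -0.47 and -0.56, and SLC38A4 at -0.61, -0.70 and -0.48. Of 376 other protein-coding SLC genes, 220 were tested, with medians of 0.13, 0.11 and 0.09. In all 3 libraries 24 were called higher, against 8.60% of all genes tested, and 7 lower, against 4.92%.

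Carriers inside the cell leaned the other way. Among 21 lysosomal and mitochondrial amino-acid carriers, 18 were tested, 15 or 16 of them were below Bulk in each library, and the median was -0.57, -0.60 and -0.61. SFXN2, a mitochondrial sideroflexin, was the 1 gene called lower in all 3, at -1.56, -1.79 and -1.60, against 4.92% of all genes tested. SLC25A15, the mitochondrial ornithine carrier, was at -0.999, -1.25 and -0.81, passing 2-fold in eGFP alone. SLC25A29, a mitochondrial carrier of basic amino acids, was at 0.89, 1.16 and 0.81 and was called in eGFP, a call that was lost on log2(FPKM + 1).

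The ATF4 pathway was examined because many of these carriers are its targets. ATF4 itself was read 3629 times in Bulk, against 14198, 12544 and 11767, with log2 ratios of 1.86 (1.81 to 1.91), 1.78 (1.73 to 1.83) and 1.69 (1.64 to 1.75). The list of 15 genes of this pathway held eIF2α, its kinases and phosphatase subunits, bZIP factors, NUPR1 and TRIB3. Of these, 7 were called higher in all 3 libraries, against 8.60% of all genes. ATF5 alone was called lower in all 3, against 4.92%. DDIT3 (CHOP), a transcription factor induced with ATF4, was at 2.29, 2.30 and 2.05, TRIB3, a pseudokinase that restrains ATF4, at 3.00, 2.89 and 2.79, and NUPR1, a stress-induced chromatin protein, at 4.19, 4.10 and 4.18. ATF5 was at -1.52, -1.55 and -1.86, and EIF2S1, which encodes eIF2α, at -0.74, -0.89 and -0.97. Of 26 other known ATF4 targets, 25 were tested, of which INHBE, ALDH1L2 and FGF21 passed the expression filter only through the slow-cycling libraries and so had to differ. ALDH1L2 and FGF21 are named after their values were seen. Called higher in all 3 were 17, these 3 included, against 8.60% of all genes tested. Of the 22 with a mean of at least 10 CPM, Claret had 15 called, eGFP 15 and Violet 14. The matching shares of all genes at that level were 6.08%, 6.77% and 6.01%. The range of the targets was wide. INHBE, a subunit of activin E, had 1 read in Bulk against 620, 615 and 431, and CHAC1, which degrades glutathione, 33 against 1810, 1652 and 1488. ASNS, which makes asparagine, was at 3.72, 3.85 and 3.63, and ALDH18A1, of proline synthesis, at 0.11, 0.22 and 0.01.

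Enzymes that use the imported amino acids were mixed. Of 17 genes for enzymes of glutamine, glutamate, aspartate and arginine, 16 were tested. Of the 16, 4 were called higher in all 3, against 8.60% of all genes tested. Among these 4, ASS1, which joins citrulline and aspartate in arginine synthesis, went from 429 reads in Bulk to 4327, 3921 and 3725. PYCR1, of proline synthesis, was at 1.41, 1.48 and 1.34. CAD, of pyrimidine synthesis, was at -1.08, -0.97 and -1.07, and GOT2, the mitochondrial aspartate aminotransferase, at -0.77, -0.77 and -0.98. Although SLC7A11 was higher, the 13 genes listed for glutathione synthesis, breakdown and use, the thioredoxin system and AIFM2 had medians of -0.07, -0.11 and -0.12. CHAC1 was the 1 of these 13 called higher, in all 3, against 8.60% of all genes tested. GGT1 was at 0.89, 0.93 and 0.80, PRDX1, a peroxiredoxin, at -1.04, -0.999 and -1.22, and GGCT, an enzyme of glutathione breakdown, at -1.12, -1.15 and -0.98. None of the 13 was called lower in all 3, against 4.92% of all genes tested.

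NRF2, a second known activator of SLC7A11, was looked at through its own gene and classical targets. NFE2L2, which encodes NRF2, was at 0.72, 0.65 and 0.57, and KEAP1, its inhibitor, at -1.03, -1.08 and -1.07. In this list of 12 genes, which includes SLC7A11, KEAP1 was the 1 gene called lower in all 3, against 4.92% of all genes tested. Called higher in all 3 were 2, SLC7A11 included, against 8.60%. The list medians were 0.42, 0.39 and 0.37. TXNRD1 was at 0.80, 0.86 and 0.61, and HMOX1 at 0.82, 0.69 and 0.56. NQO1 was below Bulk, at -0.51, -0.54 and -0.58.

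Genes through which cells sense amino acids were mostly close to Bulk. Of 34 such genes listed, 33 were matched and tested, with list medians of -0.16, -0.20 and -0.17. SESN2 and CASTOR1 were 2 of the 33 called higher in all 3, against 8.60% of all genes tested. Called lower were 3 in Claret, 2 in eGFP and 0 in Violet, against 6.68%, 7.63% and 7.02% of all genes, and 0 in all 3. SESN2 (Sestrin 2), a leucine sensor that restrains mTORC1, was at 2.34, 2.32 and 2.13, and CASTOR1, an arginine sensor, went from 9 reads in Bulk to 36, 50 and 33 and passed the filter only through these. Among the 28 with a mean of at least 10 CPM, 1 was called higher in all 3, SESN2, against 4.94% of all genes at that level. MTOR was at -1.09, -0.83 and -0.95, called lower in Claret alone.

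**Figure D4:**
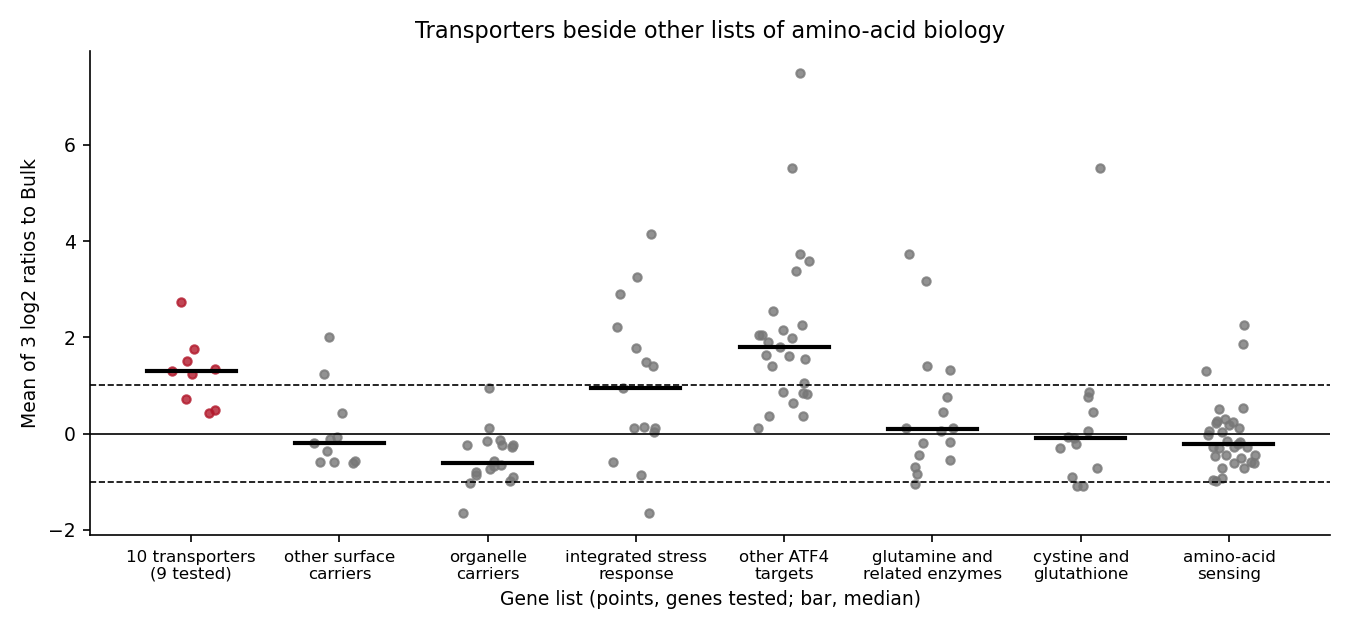
Mean of the 3 log2 ratios to Bulk (vertical axis) for each tested gene of 8 lists of amino-acid biology, with a bar at each list's median and dashed lines at 2-fold. The 9 transporters lie between 0.43 and 2.72, the tested ATF4 targets are above 0, and organelle carriers lie mostly below it.

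Genes whose pattern was most like that of SLC7A11 were sought among 12471 protein-coding genes by the root mean square difference of the log2 ratios to Bulk over the 3 slow-cycling libraries. The 5 nearest were SOCS2 (0.022), ZNF83 (0.022), FBXL20 (0.022), SLC22A15 (0.025) and SATB1 (0.039). SOCS2, a feedback inhibitor of cytokine signalling, was read 182 times in Bulk, against 478, 431 and 472. Within the set, SLC7A1 and SLC38A1 were nearest to each other (0.073), followed by SLC7A5 and SLC7A11 (0.10), and SLC3A2 lay 0.12 from either light chain. These distances rest on 3 values that share 1 Bulk library, and counting error was not carried into them. The 5 nearest genes had 182 to 317 reads in Bulk, against 2377 for SLC7A11. SLC43A1, with 280 reads in Bulk, had a Claret interval of 1.08 to 1.49, wider than these distances, so the order of the nearest genes cannot be told from counting error.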

How the data were processed

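The deposited table gives read counts per gene as whole numbers for 58735 genes, with no normalization by the authors, per the file headers. The deposited FPKM were computed by the authors from these counts and the table's exonic lengths, since FPKM times length over count is 1 constant per library. The library total which that constant implies is 96.9%, 99.97%, 100.7% and 103.5% of the summed reads in Bulk, Claret, eGFP and Violet. HISAT2 2.0.5 and featureCounts 1.5.0-p3 are named in the submitters' processing notes; strand setting and treatment of reads matching several genes are not given in the sources used here. Per the labels' protocols, a NEBNext Ultra RNA kit made the libraries. Start and end equal GENCODE 29 (GRCh38) for 58724 genes, and coordinates are GRCh38, 1-based.

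Counts of 15508179 to 16976909 per library were scaled by TMM in edgeR 4.0.16 (R 4.3.3). With 1 library per group the spread cannot be estimated and edgeR's test was not run, so log2 ratios (prior count 2) are given with 95% exact intervals (scipy 1.17.1), checked on simulated data, and no p-value. Genes with a mean of at least 1 CPM were tested and called at 2-fold. Alternatives were library-size scaling, DESeq2 1.42.0 size factors, no filter, a filter at 10 CPM, a prior of 0.25, log2(FPKM + 1), a GC correction, a 1.5-fold rule, and groups from the treatment field. Named genes are all transporters and, per list, the 3 highest and 2 lowest means of the log2 ratios, carriers called in all 3, all light chains, ATF4, DDIT3, NFE2L2 and MKI67. Genes that overlap a transporter are also named (CCDC24, AL139220.2, SLC7A11-AS1). Some genes that the rule names are not reported here. The 5 genes nearest SLC7A11 followed a distance rule. The members and lists were chosen with earlier results of these data known.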

Additional observations from a re-analysis of the deposited data

How the results depend on the processing

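With groups from the titles, the 6 transporters stayed at least 2-fold higher, and SLC7A1, SLC38A1 and SLC38A2 stayed below 2-fold, under library-size scaling, DESeq2 size factors, no filter, a filter at 10 CPM, a prior of 0.25, log2(FPKM + 1) and a GC correction. The lowest and highest log2 ratios over these settings and the 3 libraries were 1.09 and 1.40 for SLC3A2, 1.16 and 1.40 for SLC7A5, 1.15 and 1.43 for SLC7A11, 1.30 and 1.60 for SLC1A5, 1.98 and 2.85 for SLC1A4, 1.01 and 2.11 for SLC6A9, 0.42 and 0.60 for SLC7A1, 0.31 and 0.56 for SLC38A1, and 0.64 and 0.87 for SLC38A2.

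With groups from the treatment field, transporters called higher than Bulk were 0 in Claret, eGFP and Violet, and 6 were lower in Claret. The log2 ratios in Claret were then -1.18 for SLC3A2, -1.28 for SLC7A5, -1.38 for SLC7A11, -2.80 for SLC1A4, -1.43 for SLC1A5 and -2.06 for SLC6A9. In eGFP they were -0.064 for SLC7A11, -0.12 for SLC1A4, -0.25 for SLC6A9, 0.20 for SLC3A2, 0.10 for SLC7A5 and 0.15 for SLC1A5, and in Violet 0.07 for SLC7A5, 0.10 for SLC1A5, -0.012 for SLC3A2, -0.15 for SLC7A11, -0.11 for SLC1A4 and -0.61 for SLC6A9. Between slow-cycling libraries 6 were called for Claret against eGFP and 6 for Claret against Violet. Counts over all genes were 1024, 50 and 55 higher and 1660, 104 and 133 lower. These values follow from the exchange of libraries.

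Counts over all genes, in the order Claret, eGFP and Violet, were 1653, 1755 and 1660 higher and 974, 1113 and 1024 lower as reported. With no filter 3521, 4477 and 4713 were higher and 2960, 3239 and 2771 lower. A filter at 10 CPM gave 615, 685 and 608 higher and 634, 746 and 726 lower. On log2(FPKM + 1), 589, 633 and 533 were higher and 619, 725 and 743 lower. The cause was not tested. Among the lists, carriers of the cell surface called higher fell from 2 to 1 in each library at 10 CPM and on log2(FPKM + 1), and the 1 organelle carrier called higher in eGFP fell to 0 on log2(FPKM + 1). At 1.5-fold, 3123, 3215 and 3219 were higher and 2524, 2702 and 2551 lower. Under that rule 7 transporters were called higher than Bulk in each library, as SLC38A2 joined the 6. Also at 1.5-fold, 1 transporter, SLC6A9, differed between eGFP and Violet. No paired analysis was possible because each group holds 1 library. Leaving out a library leaves its group empty and was not run.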

Other observations

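Among the 220 other SLC genes tested, SLC16A1 (MCT1), a carrier of lactate and pyruvate, was read 0 times in Bulk, which allows up to 3 reads, and 372, 331 and 238 times in Claret, eGFP and Violet. It passed the expression filter only through the slow-cycling libraries. SLC16A8, a lactate carrier of the same family, was read 30 times in Bulk and 154, 159 and 183 times in those libraries. At the other end, SLC25A10, the mitochondrial dicarboxylate carrier, had log2 ratios of -2.08, -2.36 and -2.21, and SLC43A3, a purine nucleobase carrier, of -1.42, -1.88 and -1.55.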
